A study of Mus musculus with 18 samples.

Results

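Mir31 is the mouse locus of the miR-31 hairpin, the precursor of the mature miRNAs miR-31-5p and miR-31-3p. It was taken as the row whose Ensembl identifier, ENSMUSG00000065408, carries the symbol Mir31 in GENCODE M21, and it is 1 of 2009 miRNA loci counted and 1 of 245 with enough counts for testing. The locus was chosen by its measured counts over the 4 groups, which were already known, so its levels and differences are given as a description, with errors and without a p-value.

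A miRNA hairpin is cut by Drosha in the nucleus and by Dicer in the cytoplasm, and 1 strand of the product is loaded into an Argonaute protein. The loaded strand pairs with messages through its seed, bases 2 to 8, and lowers their translation and stability. In mesenchymal progenitors miR-31 is known for acting on Runx2, a transcription factor of bone formation, and it is also known from keratinocytes and other epithelia. Extracellular vesicles (EVs) are membrane particles that cells release and that carry small RNA.

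Small RNA was sequenced from adipose-derived stromal cells (ASC), mesenchymal cells grown from the fat of adult mice of the strain labelled NGL, and from the EVs they released. Primed cells received interferon gamma, a T cell cytokine, for 24 h, and naive cells did not. All cells were then cultured for 48 h in alpha MEM with 2% EV-free serum. The groups were naive ASC (n = 4), primed ASC (n = 4), naive EV (n = 5) and primed EV (n = 5). ASC RNA was isolated with TRIzol and an RNeasy column and EV RNA with a SeraMir column kit, so EV against ASC and isolation method cannot be told apart. The labels do not say which replicates are separate animals or cultures, so errors and p-values measure the spread between these libraries, which may be technical.

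Library totals were 486237 to 926183 counts in naive ASC, 180812 to 895721 in primed ASC, 613448 to 2245823 in naive EV and 626951 to 3052942 in primed EV. The 10 mesenchymal marker loci were all counted and took 27.4% to 52.5% of counts in naive ASC, 30.4% to 42.0% in primed ASC, 66.8% to 70.0% in naive EV and 69.4% to 71.5% in primed EV. Haematopoietic marker loci took 0.00873% to 0.0492% in ASC libraries and 0.145% to 1.47% in EV libraries, and the endothelial Mir126a took 0.00601% to 0.0592% and 0.198% to 0.902%. Epithelial marker loci took 0.289% to 1.97% of the counts of a library. The part of these other markers in the Mir31 levels was not tested. In such bulk libraries fewer cells of a type and less RNA per cell cannot be told apart.

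The 3 sequences of the locus are shown because its counts are for the whole hairpin and do not tell the arms apart. They are RefSeq sequences on GRCm38.p6, written 5′ to 3′. Capitals mark the seed in each mature miRNA and both mature arms in the hairpin.
mmu-miR-31-5p: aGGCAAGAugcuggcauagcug
mmu-miR-31-3p: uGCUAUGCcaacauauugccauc
Mir31 hairpin: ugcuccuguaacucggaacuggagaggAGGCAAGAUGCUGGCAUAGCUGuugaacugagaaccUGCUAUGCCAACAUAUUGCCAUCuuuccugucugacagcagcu
The 5p arm has 22 bases and covers bases 28 to 49 of the 106-base hairpin, and the 3p arm has 23 bases and covers bases 64 to 86. None of the other mature miRNAs among the 1679 of the RefSeq table had the seed GGCAAGA or the seed GCUAUGC (0 of each). Neither mature sequence occurred in another hairpin of the table (0 of the other hairpins among 1005). Copies with mismatches were not searched for.

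The hairpin lies on chromosome 4 (GRCm38) from 88910557 to 88910662 on the minus strand. GENCODE M21 places it in exon 3 of 3 of the long intergenic non-coding RNA AL805899.1, which runs from 88909855 to 88938521 on the same strand. The 5p arm is at 88910614 to 88910635 and the 3p arm at 88910577 to 88910599. On one side lie type I interferon genes, with Ifne at 30.4 kb and Ifna1 at 59.9 kb. On the other side lie Mtap, a methionine salvage enzyme gene, at 226.5 kb, and the cell cycle inhibitor genes Cdkn2a at 364 kb and Cdkn2b at 396 kb. The nearest miRNA locus with any count was Mir491, at 0.788 Mb, with 6 counts in 3 libraries, so Mir31 was the only locus within 5 Mb with enough counts for testing.

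Mir31 was counted in all 18 libraries and was a locus of middle rank. Levels are in CPM, counts relative to a library total scaled by the trimmed mean of M values (TMM), and are not corrected for length. In naive ASC the level was 1259, 1468, 1419 and 933.5 CPM in replicates 1, 3, 4 and 5, from 734, 1604, 1571 and 756 counts. In primed ASC it was 971, 796, 963 and 332 CPM in replicates 2 to 5, from 1068, 296, 232 and 267 counts. One library in each ASC group, replicate 5, was the lowest of its group.

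In naive EV the level was 1395, 1758, 1939, 1988 and 1050 CPM in replicates 1 to 5, from 2844, 1480, 2150, 1197 and 635 counts. In primed EV it was 436, 1187, 958, 948 and 574 CPM in replicates 1 to 5, from 232, 3184, 846, 876 and 276 counts. The 2 lowest EV libraries were both primed, and the 3 highest were all naive. As unscaled shares, Mir31 took 0.160% ± 0.0145 (SD, n = 4) of all counts in naive ASC, 0.0959% ± 0.0405 (n = 4) in primed ASC, 0.149% ± 0.0345 (n = 5) in naive EV and 0.0629% ± 0.0280 (n = 5) in primed EV. The lowest share was 0.0311% in primed EV 1, with a 95% Wilson interval of 0.0274% to 0.0354% that covers counting error only.

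**Figure D1:**
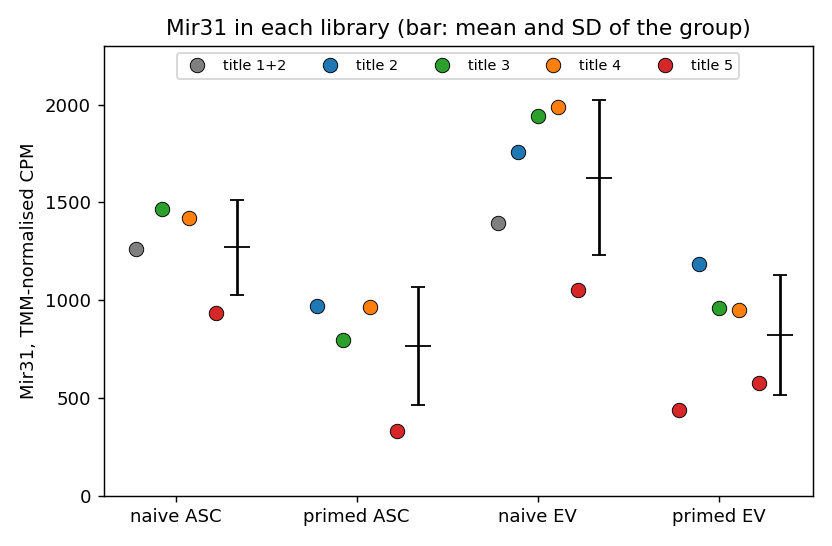
Level of Mir31 in each of the 18 libraries (vertical axis, TMM-scaled CPM) by group, with 1 point per library and bars for the mean and SD of each group. Naive EV libraries lie between 1050 and 1988 CPM and primed EV libraries between 436 and 1187 CPM, and these ranges overlap. Primed ASC libraries, at 332 to 971 CPM, lie below all naive EV libraries.

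From highest to lowest the group means were naive EV at 1626 ± 398 CPM (SD, n = 5), naive ASC at 1270 ± 241 CPM (n = 4), primed EV at 821 ± 308 CPM (n = 5) and primed ASC at 765 ± 300.1 CPM (n = 4). The means of naive EV and naive ASC, and those of primed EV and primed ASC, differed by less than the SD of the EV group. Naive ASC and primed EV differed by more than 1 SD of either, but their ranges met: the lowest naive ASC library had 933.5 CPM and the highest primed EV library 1187 CPM. As unscaled shares they did not meet, with 0.145% the lowest in naive ASC and 0.104% the highest in primed EV. Mir31 ranked 56th of 245 loci by mean level in naive ASC, 53rd in naive EV, 71st in primed ASC and 69th in primed EV.

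The first comparison asks whether EVs held Mir31 at the level of their parent cells. In naive samples the mean level in EVs was 1.28 times that in ASC, a fitted log2 difference of 0.36 (SE 0.31), and 3 of 5 naive EV libraries lay above every naive ASC library. In primed samples the ratio was 1.07 and the log2 difference 0.11 (SE 0.31), and 1 of 5 primed EV libraries lay above every primed ASC library. Both differences were near or below their error. With plain library totals in place of TMM, Mir31 was level or lower in EVs, at −0.11 and −0.60, while the median over the 245 loci shifted from −0.24 to −0.70 and from 0.02 to −0.69. In primed samples the sign also turned without primed ASC 5 (−0.13) or without primed EV 2 (−0.14).

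Most loci differed between EV and ASC. By the quasi-likelihood test of edgeR with Benjamini-Hochberg adjusted p under 0.05, 162 of 245 loci (66.1%) passed in naive samples, with 82 higher (33.5%) and 80 lower (32.7%) in EVs. In primed samples 167 loci (68.2%) passed, with 88 higher (35.9%) and 79 lower (32.2%). With library totals alone the split was 65 higher and 116 lower in naive samples, and 58 and 118 in primed samples. The EV and ASC libraries did not overlap for 58.4% of loci in naive samples and 53.5% in primed samples, and for Mir31 they overlapped in both. Mir21a, a miRNA abundant in fibroblasts, was higher in naive EVs by 3.07 (SE 0.22, adjusted p = 5.55e-10), Mir22 by 1.23 (SE 0.24) and Mir143, a smooth muscle and fibroblast miRNA, by 1.15 (SE 0.22).

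Loci with nearly the same level as Mir31 went either way between EVs and cells. In naive ASC, where Mir31 had 1270 CPM, the next loci were Mir155 (1288 CPM), Mir6944 (1273 CPM), Mir744 (1212 CPM) and Mir300 (1182 CPM). Mir155, known from activated immune cells, had a naive EV against ASC log2 difference of −0.46 (SE 0.27), which did not pass (adjusted p = 0.142). Mir6944 fell in EVs by 1.04 (SE 0.32) and Mir744 by 1.29 (SE 0.18), and Mir300 rose by 1.07 (SE 0.19). The Mir6944 difference did not pass without naive ASC 5.

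In naive EV the loci next to Mir31 at 1626 CPM were Mir381 (1703 CPM), Mir103-1 (1666 CPM), Mir100 (1578 CPM) and Mir23b (1545 CPM). Mir381 was higher in EVs by 1.03 (SE 0.19), and Mir23b, a partner of the miR-27 and miR-24 loci in a cluster, fell by 1.59 (SE 0.37). Mir103-1 at −0.39 (SE 0.20) and Mir100 at −0.60 (SE 0.27) did not pass (edgeR, adjusted p = 0.0951 and 0.0543). Mir103-1 passed without primed ASC 5, and Mir100 passed without naive ASC 4 or without naive EV 5. Mir31, at 0.36, lay 95th from the top of the 245 differences.

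**Figure D2:**
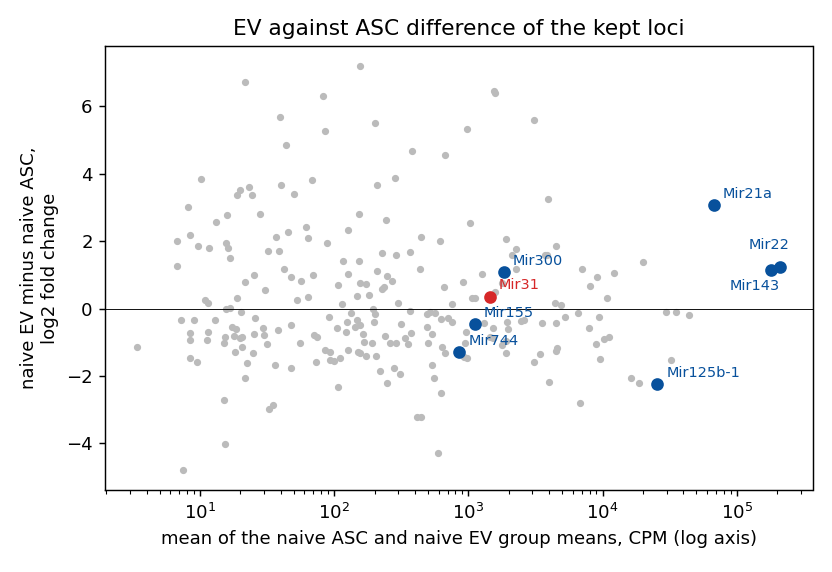
Difference between naive EV and naive ASC (vertical axis, log2 fold change) against mean level (horizontal axis, log scale, CPM) for the 245 loci tested, with Mir31 and the loci named beside it marked. Mir31 lies at 0.36, between Mir300 at 1.07 and Mir155 at −0.46, while Mir21a reaches 3.07.

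The second comparison asks how interferon gamma priming moved Mir31. In EVs the naive mean was 1.98 times the primed mean, a fitted log2 difference (primed minus naive) of −0.98 (SE 0.29). Of the 5 primed EV libraries 4 lay below every naive EV library, and primed EV 2, at 1187 CPM, lay above naive EV 5, at 1050 CPM. In ASC the naive mean was 1.66 times the primed mean, with a log2 difference of −0.73 (SE 0.33), and 2 of 4 primed ASC libraries lay below every naive ASC library. This overlap depended on the scaling. As unscaled shares the ASC groups lay apart, at 0.145% to 0.173% in naive and 0.0382% to 0.128% in primed ASC. How many other loci lay apart in unscaled shares was not counted. The priming difference in EVs minus that in ASC was −0.25 (SE 0.44), less than its error. Leaving out 1 library at a time gave −1.12 to −0.70 in EVs and −0.89 to −0.48 in ASC.

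The background of called loci was low for priming. By the same edgeR test 2 of 245 loci (0.816%) passed in EVs, with 2 higher (0.816%) and 0 lower (0%) after priming. In ASC 25 loci (10.2%) passed, with 13 higher (5.31%) and 12 lower (4.9%). This even split depended on the scaling: it was 18 higher and 5 lower with RLE factors, 17 and 2 with TMMwsp factors, and 14 and 5 with upper quartile factors. With library totals alone it was 11 higher and 14 lower. Naive and primed libraries did not overlap for 2.45% of loci in EVs and 11.4% in ASC. No locus passed for the difference between the priming effects (0 of 245, 0%), with 26 at an unadjusted p under 0.05, and DESeq2 gave 3. The ASC count rested on few libraries: it was 6 (5 higher, 1 lower) without naive ASC 3 or without naive ASC 4, 11 (9 higher, 2 lower) without primed ASC 3, and 12 (11 higher, 1 lower) without primed ASC 4. The EV count was 4 without naive EV 1, 8 without primed EV 2, and 1 without naive ASC 1, naive ASC 3 or any of the primed ASC libraries. Mir31 had the 11th lowest of the 245 priming differences in EVs, where the median was 0.02, and the 33rd lowest in ASC, where the median was −0.12.

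**Figure D3:**
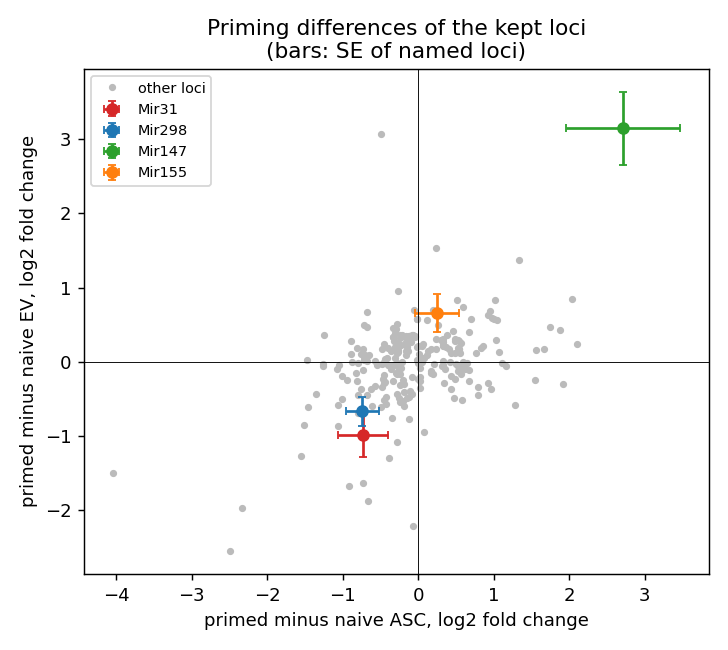
Priming difference in ASC (horizontal axis, log2 fold change, primed minus naive) against that in EVs (vertical axis, log2 fold change) for the 245 loci tested, with named loci marked. Mir31 lies at −0.73 and −0.98, in the lower left, beside Mir298 at −0.74 and −0.67, and Mir147 lies in the upper right at 2.71 and 3.15.

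The libraries carry a number in their titles as well as the replicate number used here, and the labels do not say what it stands for. Title number 5 belongs to naive ASC 5, primed ASC 5, naive EV 5, primed EV 5 and primed EV 1. These 5 libraries had the lowest Mir31 level of their group in all 4 groups, at 933.5 CPM in naive ASC, 332 CPM in primed ASC, 1050 CPM in naive EV, and 436 and 574 CPM in primed EV. The other libraries had 1259 to 1468 CPM in naive ASC, 796 to 971 CPM in primed ASC, 1395 to 1988 CPM in naive EV and 948 to 1187 CPM in primed EV. In scaled CPM Mir31 was the 1 locus of 245 (0.408%) for which the libraries titled 5 were lowest in every group, and 0 loci had them highest in every group. This pattern was seen in the data first and is given as a description.

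Without the libraries titled 5, the naive and primed levels of Mir31 did not overlap in EVs or in ASC. These libraries were singled out by their low Mir31 level, and leaving out the lowest of each group narrows its spread. The separation and the shares beside it are therefore a description and no test. Among the other libraries 9.39% of loci had naive and primed EV levels that did not overlap, with 8 of 245 (3.27%) lower in primed EV. In ASC this share was 37.1%, with 59 of 245 (24.1%) lower in primed cells. The fitted priming difference was then −0.79 (SE 0.19) in EVs and −0.50 (SE 0.20) in ASC. With the libraries titled 3 or 4 left out instead, it was −0.92 (SE 0.43) in EVs and −0.76 (SE 0.52) in ASC. Side by side within title numbers, Mir31 had 1758 CPM in the naive and 1187 CPM in the primed EV library titled 2, 1939 and 958 CPM in those titled 3, and 1988 and 948 CPM in those titled 4. In the ASC libraries titled 3 it had 1468 CPM in naive and 796 CPM in primed cells, and in those titled 4 it had 1419 and 963 CPM. For title 5 it had 933.5 and 332 CPM in ASC, and 1050 CPM in the naive against 436 and 574 CPM in the primed EV libraries. In each of these pairs the primed library was lower.

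**Figure D4:**
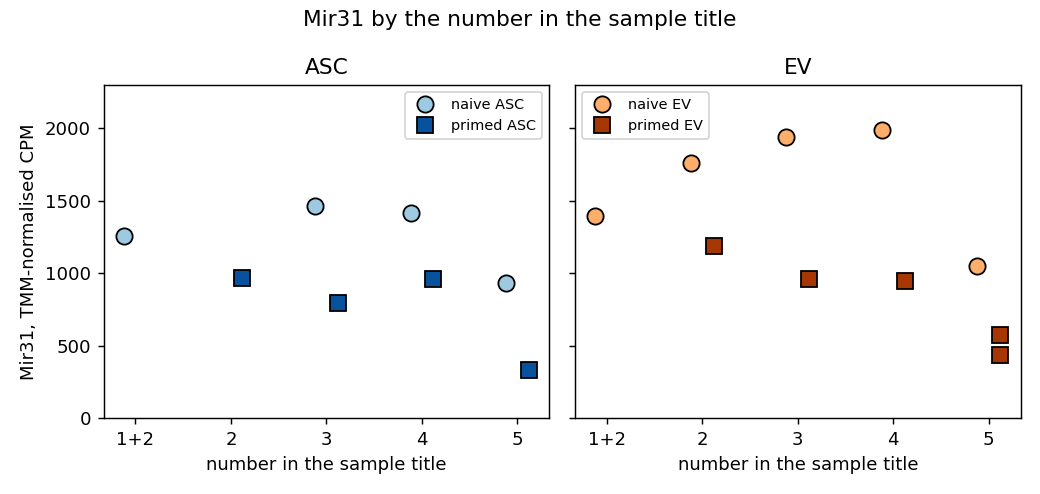
Level of Mir31 (vertical axis, TMM-scaled CPM) by the number in the library title (horizontal axis), with 1 point per library and a symbol per group. The libraries titled 5 have the lowest level of each group, from 332 to 1050 CPM, and primed libraries lie below naive libraries of the same source within each title number that has both.

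Mir31 varied more within groups than most loci of like abundance. Its pooled SD of log2 CPM within groups was 0.53, the 92nd highest of 245 loci, for which the median was 0.44. Among the 41 loci within a factor of 2 of its mean level it was the 6th highest, and the median was 0.36. The coefficient of variation was 19.0% in naive ASC, 39.2% in primed ASC, 24.5% in naive EV and 37.5% in primed EV.

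The loci whose pattern over the 18 libraries was most like that of Mir31 were Mir582, Mir154, Mir298, Mir410 and Mir494. Likeness was the root mean square difference of log2 CPM after centring each locus on the mean of its group means, and a smaller value is more alike. It was 0.567 for Mir582, 0.570 for Mir154, 0.572 for Mir298, 0.598 for Mir410 and 0.610 for Mir494, against a median of 1.07 over the 230 loci compared. The measure uses all 18 libraries, which share their scaling and depth, and has no test. These values are also close to the within-group SD of Mir31 itself.

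Of these loci Mir298 kept the group order of Mir31. Its mean level was 1178 CPM in naive EV, 954.5 CPM in naive ASC, 742 CPM in primed EV and 572 CPM in primed ASC. Its priming difference was −0.67 (SE 0.19) in EVs, which did not pass (edgeR, adjusted p = 0.102), and −0.74 (SE 0.22) in ASC, which did (adjusted p = 0.0331). The ASC call for Mir298 was lost in 26 of 32 alternatives, 15 of them leaving out 1 library. On group means alone the likeness of Mir298 to Mir31 was 0.148. Within groups it differed: Mir298 was highest in naive ASC 5 (1201 CPM), naive EV 5 (1405 CPM) and primed EV 5 (950 CPM). In those libraries Mir31 was lowest or next to lowest of its group. Mir298 had 530 CPM in primed ASC 5 and 667 CPM in primed EV 1, inside the range of the other libraries. Mir181b-2, less alike at 0.658, had the same group order, with 1251, 1005, 931 and 825 CPM.

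The other 4 loci had a lower mean level in primed than in naive ASC, and their EV means differed less. Mir582 had 227 CPM in naive ASC, 123 CPM in primed ASC, 171 CPM in naive EV and 184 CPM in primed EV. Mir410 had 5707, 4103, 4841 and 4729 CPM in the same order. Their EV priming differences were 0.10 (SE 0.24) for Mir582 and −0.03 (SE 0.20) for Mir410, against −0.98 for Mir31. The Mir582 difference in ASC, −0.89 (SE 0.28), passed (edgeR, adjusted p = 0.0463) and was lost in 25 of 32 alternatives, 15 of them leaving out 1 library.

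Of the loci named above as most like Mir31, Mir298 alone had the same group order. Its mature sequences are printed beside those of Mir31 for comparison (RefSeq, GRCm38.p6, seed in capitals).
mmu-miR-298-5p: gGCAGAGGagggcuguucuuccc
mmu-miR-298-3p: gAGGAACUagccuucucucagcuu
Neither seed is that of a miR-31 arm.

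miRNAs reported to act in bone formation, many of them on Runx2, formed an osteoblast list, of which 15 of 25 loci had enough counts. In naive EVs against ASC 6 were higher and 4 lower, beside 33.5% and 32.7% of all loci, with a median log2 difference of −0.12 against −0.24 over all loci. In primed samples 6 were higher and 4 lower, beside 35.9% and 32.2%. Mir34c was higher in naive EVs by 1.58 (SE 0.21) and Mir27b by 1.04 (SE 0.25), and Mir23a was lower, at −0.95 (SE 0.21). For priming 0 of the 15 passed in EVs, where 0.816% of all loci did. In ASC 2 passed as higher and 0 as lower, beside 5.31% and 4.9% of all loci, and the median was −0.08 against −0.12. The 2 loci were Mir218-1, at 1.88 (SE 0.39, edgeR adjusted p = 0.00745), and Mir34b, a locus of the p53-responsive miR-34 family, at 0.86 (SE 0.25, adjusted p = 0.0301). The Mir34b call was lost without naive ASC 3, naive ASC 4, primed ASC 3 or primed ASC 4.

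miRNAs reported to respond to inflammatory signals had 18 of 25 loci tested. Priming raised 1 of the 18 in EVs, beside 0.816% of all loci, and 4 in ASC, beside 5.31%. As lower, 0 passed in EVs and 0 in ASC, beside 0% and 4.9% of all loci. The medians were 0.21 in EVs and 0.43 in ASC, against 0.02 and −0.12 over all loci. The locus raised in both was Mir147, induced by Toll-like receptor signals in macrophages, at 3.15 (SE 0.49, edgeR adjusted p = 0.000827) in EVs and 2.71 (SE 0.76, adjusted p = 0.0297) in ASC. The other 3 raised in ASC were members of the miR-125 family, Mir125a at 0.82 (SE 0.18), Mir125b-1 at 0.68 (SE 0.16) and Mir125b-2 at 0.98 (SE 0.18), and the mature miR-125b-5p comes from both of its loci. Of the ASC calls 2 of 4 were left without naive ASC 3 or without naive ASC 4, and Mir147 did not pass in ASC without any 1 of naive ASC 3, 4 or 5 or primed ASC 3 or 4.

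Among the loci on chromosome 4 other than Mir31, some were higher and some lower in EVs. Of the 11 tested, 4 were higher and 3 lower in naive EVs than in naive ASC, beside 33.5% and 32.7% of all loci. For priming 0 of the 11 passed in EVs and 0 in ASC, beside 0.816% and 10.2%. These shares are near those of all loci. Mir101a was higher in naive EVs by 4.54 (SE 0.35), Mir30e by 3.24 (SE 0.23) and Mir872 by 0.65 (SE 0.27), against 0.36 for Mir31. The Mir872 difference did not pass without naive ASC 5, naive EV 1 or naive EV 2. Mir34a, at 0.41 (SE 0.25), did not pass (edgeR, adjusted p = 0.143).

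Epithelial marker loci were compared because miR-31 is also abundant in keratinocytes. Of 11 loci tested, 3 were higher and 1 lower in naive EVs than in naive ASC, beside 33.5% and 32.7% of all loci. In primed samples 4 were higher and 1 lower, beside 35.9% and 32.2%. For priming 0 passed in EVs and 0 in ASC, beside 0.816% and 10.2%. The medians were −1.50 in EVs and −0.73 in ASC, against 0.02 and −0.12 over all loci. The most abundant members, Mir182 and Mir183, had 1026 to 14786 and 183 to 1732 counts per library. Mir182 had 3067 to 9624 counts in the libraries titled 1+2 or 2. Their priming differences were 0.03 (SE 0.37) and −0.04 (SE 0.35) in EVs, and −0.71 (SE 0.41) and −0.55 (SE 0.39) in ASC. Without primed ASC 5 the Mir182 difference in ASC passed, at −1.15. Mir205, a defining epithelial miRNA, split by title number: it had 11 to 44 counts in the 5 libraries titled 1+2 or 2, 186 to 2142 counts in the 8 titled 3 or 4, and 24 to 220 counts in the 5 titled 5. Mir31 had 971 to 1758 CPM in the libraries titled 1+2 or 2, where Mir205 had 4.85 to 40.0 CPM, and 796 to 1988 CPM in those titled 3 or 4, where Mir205 had 327 to 1935 CPM. In those titled 5 it had 332 to 1050 CPM, and Mir205 had 45.1 to 364 CPM.

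Within the naive groups Mir31 in CPM was lower in the libraries titled 1+2 or 2, which had little Mir205, than in those titled 3 or 4. It had 1259 CPM against 1468 and 1419 CPM in naive ASC, and 1395 and 1758 CPM against 1939 and 1988 CPM in naive EV. This order depended on the scaling for naive EV 2. Its unscaled share, 0.190%, was above the 0.156% and 0.170% of naive EV 3 and 4. Within the primed groups the order in CPM turned, with more Mir31 in the libraries titled 2 than in those titled 3 or 4. Mir31 had 971 CPM against 796 and 963 CPM in primed ASC, and 1187 CPM against 958 and 948 CPM in primed EV. The 963 CPM of primed ASC 4 came from 232 counts. As unscaled shares primed ASC 4, at 0.128%, lay above primed ASC 2, at 0.119%. Mir205 was also lower in the primed library of each title number, as Mir31 was. In ASC Mir205 had 1220 CPM in naive and 987 CPM in primed cells for title 3, 1935 and 772 CPM for title 4, and 237 and 49.7 CPM for title 5. In EVs it had 15.4 and 4.85 CPM for title 2, 925 and 546 CPM for title 3, 1912 and 327 CPM for title 4, and 364 CPM against 45.1 and 79.0 CPM for title 5. The EV values for title 2 rest on 13 counts in each library, at totals of 778115 in naive EV 2 and 3052942 in primed EV 2. The fitted priming difference of Mir205 was −1.68 (SE 1.27) in EVs and −0.91 (SE 1.40) in ASC, and neither passed (edgeR, adjusted p = 0.673 and 0.714). Its part in the Mir31 differences was not tested.

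**Figure D5:**
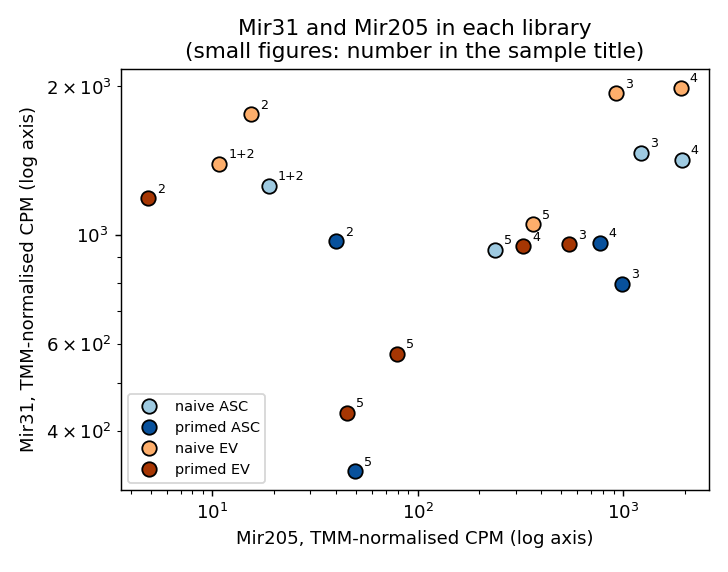
Level of Mir31 (vertical axis, log scale, CPM) against that of the epithelial miRNA locus Mir205 (horizontal axis, log scale, CPM) in the 18 libraries, with the title number beside each point. Libraries titled 1+2 or 2 have 4.85 to 40.0 CPM of Mir205 and 971 to 1758 CPM of Mir31, those titled 3 or 4 have 327 to 1935 and 796 to 1988 CPM, and those titled 5 have 45.1 to 364 and 332 to 1050 CPM.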

How the data were processed

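Small RNA of 18 libraries was analysed from the raw counts per miRNA hairpin locus that the authors deposited without normalization. Per the file headers, featureCounts 1.5.3 counted reads over the miRNA annotation of Ensembl release 76, with strand ignored and no options for multiply mapped reads. The submitters' processing notes list featureCounts as 1.45, with STAR 2.0.4, bcl2fastq and Subread, and the build GRCm38. How reads were trimmed, and the settings of the aligner, are not given in the sources. Unstranded counting does not part Mir31 from antisense reads, and multiply mapped reads were not counted per those headers.

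Of 2009 loci, 1899 matched GENCODE M21, and the other 110 held 5 of 17629699 counts. The filter of edgeR 4.0.16 (filterByExpr) kept 245 loci with 99.9573% of counts. After TMM scaling, all libraries entered 1 fit in R 4.3.3 with a mean for each group. Quasi-likelihood p-values were Benjamini-Hochberg adjusted across these 245 loci, with a threshold of 0.05. The script was tested on simulated data. No 2 libraries were identical (0 of 153 pairs). SEs, derived from the log2 difference and its F value, are approximate. The log2 CPM values used a prior count of 2.

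Alternatives were other scalings and filters, limma-voom 3.58.1, DESeq2 1.42.0, thinned counts, blocks and single libraries left out. Members and lists were chosen with earlier results of these data known. Other loci were named by rules on level, likeness (mean of at least 10 CPM), position within 5 Mb, shared seed, and per list the 4 highest members plus those called for priming.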

Additional observations from a re-analysis of the deposited data

Results flagged for a closer look

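In groups of 4 or 5 libraries, a library was singled out where its gap to the nearest other one was large against the range of the group by Dixon's 95% limit. Of 80 groups examined, 7 held such a library, and chance gives about 1 in 20. For Mir31 the level in CPM gave none, but its raw counts gave 2, both in the deepest library of the group. Primed ASC 2 had 1068 counts, against 232 to 296 in the other primed ASC libraries, at a total of 895721. Primed EV 2 had 3184 counts, against 232 to 876, at a total of 3052942.

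Primed ASC 2 also stood apart for 3 named loci in CPM. It had 2685 CPM of Mir6944 (others 726 to 1000.4), 1451 CPM of Mir300 (905 to 938) and 157 CPM of Mir494 (78.9 to 83.4). Primed ASC 5 had 2865 CPM of Mir103-1, against 1355 to 1522 CPM in the others. Haematopoietic marker loci took 1.47% of counts in naive EV 4, against 0.357% to 0.654% in the other naive EV libraries.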

How the results depend on the processing

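The priming differences of Mir31 stayed negative in every alternative run, from −1.24 to −0.70 in EVs and from −1.02 to −0.43 in ASC. The naive EV against ASC difference ranged from −0.11 to 0.54 and the primed one from −0.60, with library totals alone, to 0.30. The Mir31 interaction ranged from −0.72 on thinned counts to 0.03 with a block by title number, the 1 change of sign, and from −0.56 to −0.07 with single libraries left out. The libraries were not paired by number, since not every pair of same-numbered libraries deviated together: r was −0.16 to 0.0963 in all pairs titled 5, and 0.252 to 0.525 in all pairs with another title number. With a replicate block by source name or by title number the EV priming difference of Mir31 was −1.03 (SE 0.18) or −0.92 (SE 0.17). The ASC priming difference was then −1.02 (SE 0.22) or −0.95 (SE 0.19). These SEs were smaller than those without a block, 0.29 in EVs and 0.33 in ASC. The block by title number gave 7 calls for EV priming, 3 higher and 4 lower, against 2 and 0 without it.

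The EV priming count of 2 became 5 with DESeq2 (3 higher, 2 lower), 8 without a filter (3 higher, 5 lower), 0 on counts thinned to 180812 per library, and 1 with library totals, a stricter filter, TMMwsp or upper quartile factors. Single libraries left out gave 1 to 8. The ASC priming count of 25 became 15 with the 2 groups alone (14 higher, 1 lower) and 6 to 33 with single libraries left out. The interaction count of 0 became 3 with DESeq2 or without a filter, and 0 to 1 with single libraries left out. Alternatives chosen after seeing the data gave 1 EV call and 4 interaction calls without the libraries titled 5, and 0 calls for EV and ASC priming without those titled 3 or 4. For all these changes the cause was not tested. Among the named loci no direction that had passed the test reversed (0), and this was not checked for the other loci. Mir31 had 232 to 3184 counts per library, and at the lowest share, 0.0311%, the counting interval of 0.0274% to 0.0354% was narrower than the SD of that group, 0.0280%.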
